A study of Rattus norvegicus with 11 samples.

Results

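The transcripts described here encode the microtubule and neurofilament skeleton of cells and the motors that travel on it: tubulins, stathmins, microtubule-associated proteins, neurofilament subunits, kinesins, cytoplasmic dyneins and dynactin. Members were the probe sets whose single platform gene symbol starts with Tuba, Tubb, Kif, Klc, Dync, Dynl, Dctn or Stmn, or is Nefl, Nefm, Nefh, Ina, Map1a, Map1b, Map2, Map4, Map6, Mapt or Mapre1. There were 93 such probe sets, for 65 genes, among 15923 probe sets on the array. The rule used no measured value. RNA came from hippocampus of rats on a ketogenic diet, rich in fat and low in carbohydrate and described in the labels as preventing epileptic seizures (5 arrays), and of rats on a control diet (6 arrays). The sources used here give no strain, age, sex or time on the diet. Nothing in them says whether the samples are different animals, and the p-values reflect only how far these samples spread, which may in part be technical.

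Microtubules are polymers of alpha and beta tubulin, and in neurons they fill axons and dendrites. Stathmins bind free tubulin and favour disassembly, while microtubule-associated proteins such as tau and MAP2 stabilise the polymer. Kinesins mostly carry cargo outward along axons, cytoplasmic dynein with its cofactor dynactin carries cargo back to the cell body, and neurofilaments set the calibre of large axons. In bulk tissue, fewer cells of a type and less RNA per cell cannot be told apart.

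The tissue carried neuronal markers, with 9 of 10 fixed neuronal genes measured above the testing level described below. Median deposited signals were 79.9 to 87.9 on ketogenic arrays and 89.2 to 94.2 on control arrays. As a log2 ratio, the 3 prime over the 5 prime control probe set, a common measure of RNA integrity, was 0.127 to 0.344 on ketogenic arrays and -0.068 to 0.148 on control arrays for Gapdh (exact two-sided permutation test, p = 0.00649, adjusted p = 0.00649 over 3 array measures). For actin it was 0.755 to 0.985 on ketogenic arrays and 0.487 to 0.75 on control arrays (exact permutation p = 0.00216, the smallest that 5 against 6 arrays allow, adjusted p = 0.00325). On the first principal component ketogenic replicate 3 scored -2.82, where the highest ketogenic array scored 25.7 and control arrays scored -17.3 to -10.6. Its title carries a suffix letter that no other title has, of which the meaning is not given in the sources used here.

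Signals were quantile normalized and are given as log2 values throughout, and differences are ketogenic minus control. The lower 25% of probe sets by overall mean, those below 5.17, were left untested. Of the 93 member probe sets 79 were tested, for 56 genes, and 14 were not. Tubb6, Dync2i1, Klc3, Kif12, Kif15, Kif18b, Kif1b, Kif20a and Kif2c had no tested probe set. None of the tested members had a mean below the testing level on either diet (0 of 79). A probe set with an adjusted p below 0.05 (limma, Benjamini-Hochberg over 11899 tested probe sets) is described as called.

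Of the 79 tested members 8 were called higher and 4 called lower with the ketogenic diet, or 15.2%, where 16.5% of all tested probe sets were called. By direction, the whole array had 8.62% called higher and 7.87% called lower. The median log2 fold change was 0.0034 over the members and -0.0041 over all tested probe sets. At an unadjusted p under 0.05 there were 23 members. The share called was close to that of the whole array. The differences were small: the called members changed by 0.19 to 0.43, with a median size of 0.32, and 0 of the 79 tested members reached 2-fold. Diets did not overlap in 8 members, or 10.1%, against 6.99% of all tested probe sets.

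The direction differed between role groups. All 7 tested beta tubulin probe sets and all 5 stathmin probe sets had a negative sign, and all 5 dynein light chain probe sets a positive one under quantile normalization, of which the other scalings kept in full only the dynein light chains when centred. Of these, 2 of 7 beta tubulins (28.6%), 1 of 5 stathmins (20%) and 1 of 5 dynein light chains (20%) were called. Over all tested probe sets the share was 16.5%. Under each of the other scalings 3 of 5 dynein light chains were called higher, and 0 beta tubulins and 0 stathmins were called. Higher calls there made up 9.04% of all tested probe sets as deposited and 11.3% when centred. On the values as deposited 2 of 7 beta tubulins and 1 of 5 stathmins were positive, and 4 of 5 dynein light chains were. Centred on the 75th percentile of each array, 3 beta tubulins, 2 stathmins and 5 dynein light chains were positive. Neurofilaments and dynactin had 0 called probe sets out of 6 each, and cytoplasmic dynein chains 0 of 7, where 1 was called higher as deposited and 2 when centred. With the Gapdh and actin ratios as covariates 0 members were called, and all 12 called members kept their sign, while over all probe sets 6 were called. The ratios differ between the diets, so that ratio and diet cannot be told apart fully in such a fit.

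**Figure D1:**
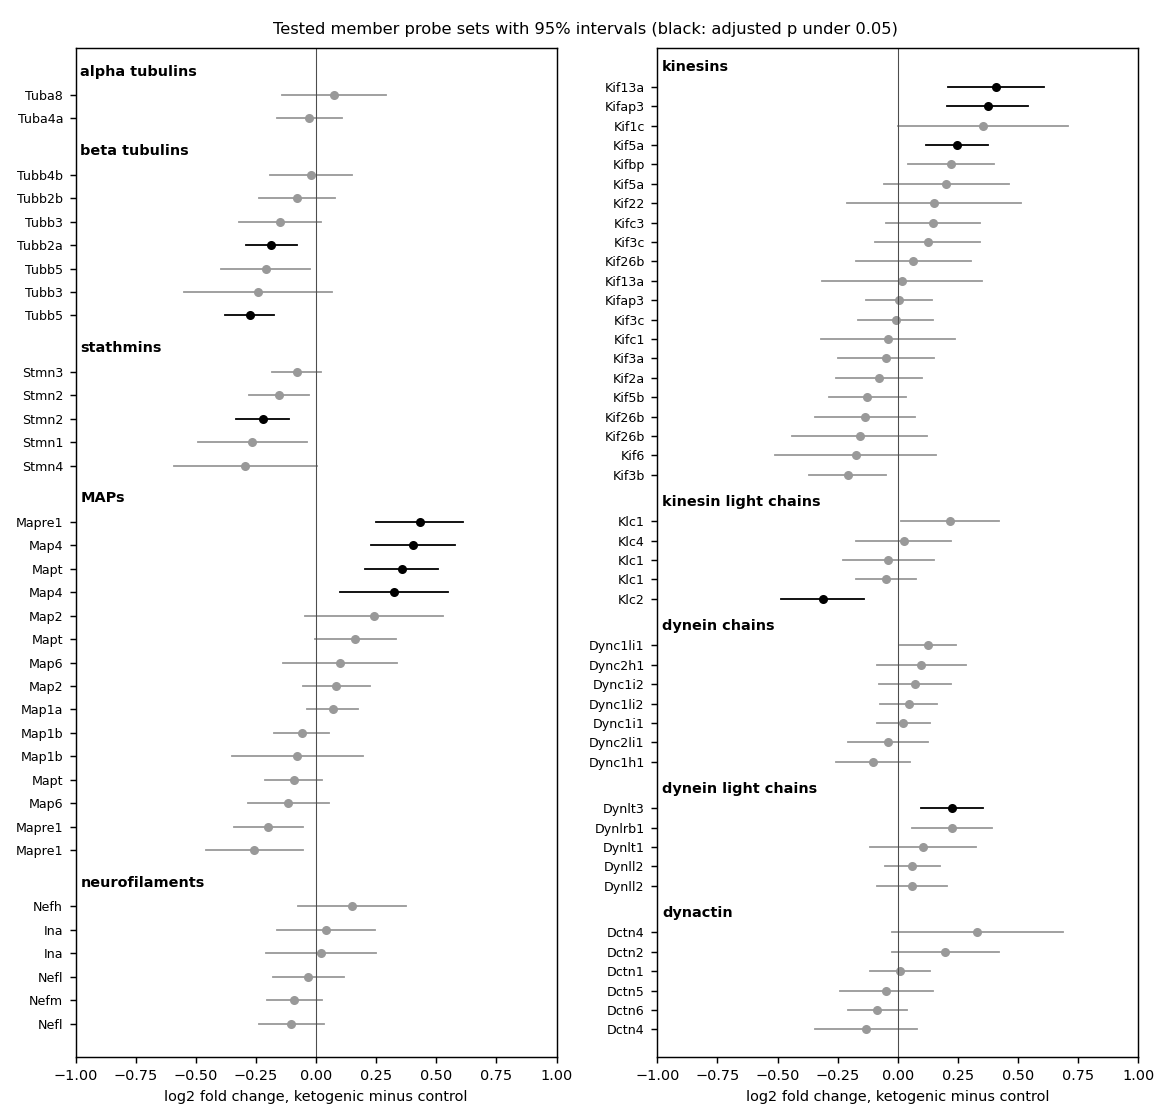
Log2 fold changes, ketogenic minus control, of the 79 tested member probe sets with 95% intervals from limma, grouped by role. Black points are the 12 called probe sets. All beta tubulin and stathmin points lie below 0 and the dynein light chains above it, although as deposited 2 of 7 beta tubulins and 1 of 5 stathmins are positive and 1 of 5 dynein light chains is negative.

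**Figure D2:**
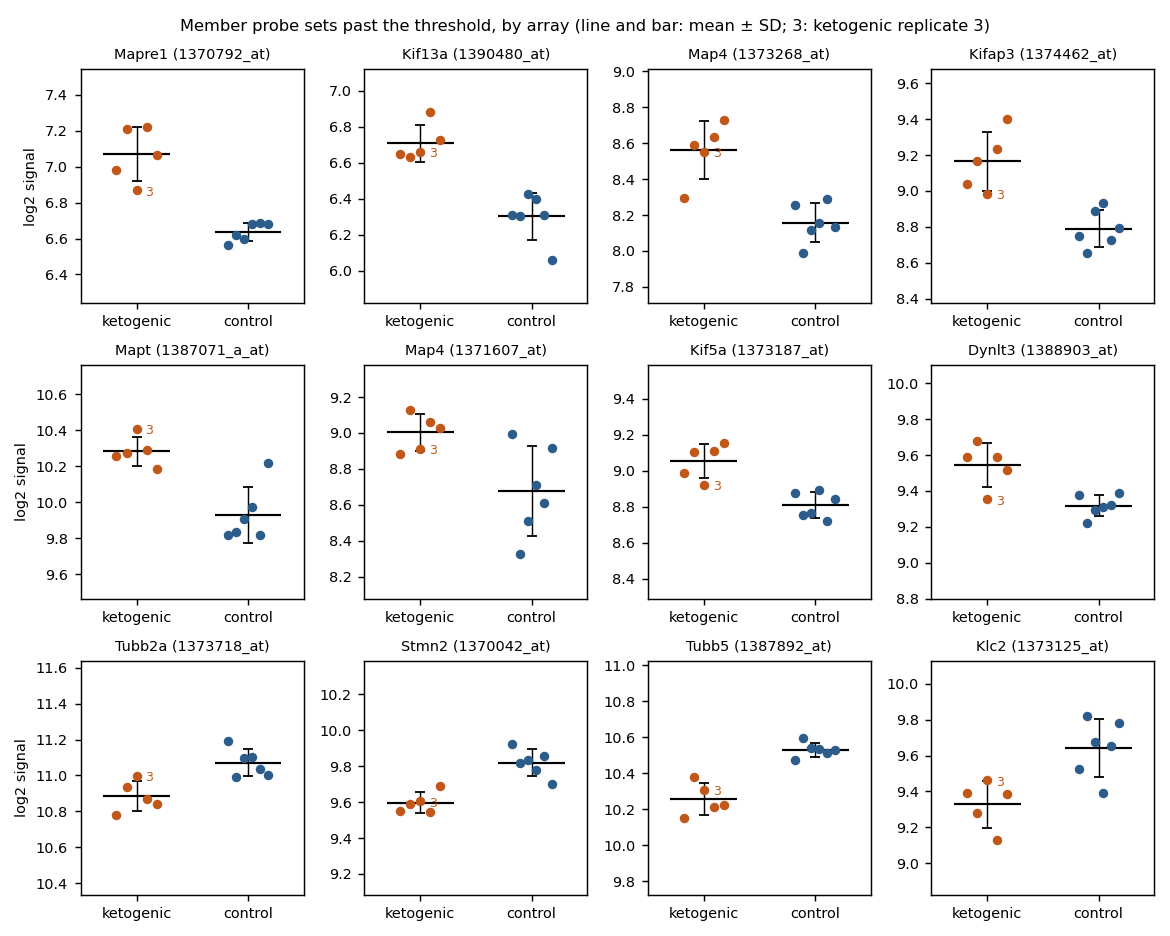
Log2 signal of the 12 called member probe sets on each array, 5 ketogenic and 6 control, with mean and SD, on axes of equal span. In 7 of the 12 panels the diets do not overlap. The array marked 3 is ketogenic replicate 3, which in Mapre1, Kifap3, Kif5a and Dynlt3 is the lowest ketogenic array.

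Promoters show how alike or unlike the called genes are where their transcription starts. RefSeq sequences of the assembly GRCr8 were found for 50 of the 65 member genes, with the called genes Map4, Mapt, Kif5a, Dynlt3 and Stmn2 among those not matched. For each direction, the promoters shown belong to the called genes with the smallest p whose tested probe sets share a sign. Each is the 250 bases before the annotated start, 5′ to 3′ on the gene's strand. Capitals mark, on either strand, the GC box GGGCGG, the CCAAT box CCAAT and TGACG, part of the cAMP response element. These motifs do not overlap here, and TATAAA, also searched, is in none of the 4. Kifap3 and Kif13a were called higher, Tubb5 and Klc2 lower.
Kifap3 (chr13:78671051-78671300, strand plus): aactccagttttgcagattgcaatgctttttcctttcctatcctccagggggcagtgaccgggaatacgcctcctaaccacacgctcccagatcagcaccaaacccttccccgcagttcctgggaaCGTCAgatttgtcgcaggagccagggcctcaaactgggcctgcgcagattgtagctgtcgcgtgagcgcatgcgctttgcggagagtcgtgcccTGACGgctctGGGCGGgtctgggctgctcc
Kif13a (chr17:17972603-17972852, strand plus): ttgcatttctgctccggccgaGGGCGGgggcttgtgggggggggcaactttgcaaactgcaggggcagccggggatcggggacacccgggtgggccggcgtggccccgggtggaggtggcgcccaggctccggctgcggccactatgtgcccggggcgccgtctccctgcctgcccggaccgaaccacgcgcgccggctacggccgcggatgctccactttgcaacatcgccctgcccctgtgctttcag
Tubb5 (chr20:2917327-2917576, strand plus): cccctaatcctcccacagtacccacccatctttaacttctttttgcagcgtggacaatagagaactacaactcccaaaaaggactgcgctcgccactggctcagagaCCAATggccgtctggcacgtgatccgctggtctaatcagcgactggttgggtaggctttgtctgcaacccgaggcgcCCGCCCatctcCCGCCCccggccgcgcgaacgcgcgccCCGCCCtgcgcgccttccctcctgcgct
Klc2 (chr1:211854161-211854410, strand minus): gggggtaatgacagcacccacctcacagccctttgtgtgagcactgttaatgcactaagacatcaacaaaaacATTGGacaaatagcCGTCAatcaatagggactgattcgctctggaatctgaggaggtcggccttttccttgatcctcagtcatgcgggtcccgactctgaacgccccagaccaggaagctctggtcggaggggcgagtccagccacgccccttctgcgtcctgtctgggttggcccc
A GC box lay in 31 of the 50 member promoters, or 62%, and in 32.4% of all 27457 promoters of that length in the table. The CCAAT box was in 42% and 34.3% of them, TGACG in 32% and 19%, and TATAAA in 16% and 13.1%. Median GC content was 62.6% for members and 52% for all. The 27457 promoters include many genes that were not tested on the array, so members and background were not matched. Tubb5 had 3 GC boxes and Kifap3 had 1, so both directions held promoters with this motif. A match describes letters only.

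Tubb5 and Tubb2a were the beta tubulins that fell. Tubb5, a beta tubulin made in many cell types, was measured on ketogenic arrays by probe set 1387892_at at 10.15, 10.38, 10.31, 10.21 and 10.22, against 10.47, 10.53 and 10.59 as lowest, median and highest control array. The highest ketogenic array lay below the lowest control array. The difference was -0.28 (SE 0.05, adjusted p = 0.00424, limma), or 1.21-fold lower. Its other probe set, 1370290_at, averaged 8.05 ± 0.19 on the ketogenic and 8.26 ± 0.10 on the control diet (SD, n = 5 and 6), a difference of -0.21 with adjusted p = 0.109. That probe set was called without ketogenic replicate 3 (-0.29, adjusted p = 0.0122).

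Tubb2a, a beta tubulin abundant in neurons, lay at 10.78, 10.93, 10.997, 10.87 and 10.84 on ketogenic arrays, against 10.99, 11.07 and 11.19 as lowest, median and highest control. Ketogenic replicate 3, the highest of its group, reached just above the lowest control, and the difference was -0.19 (SE 0.05, adjusted p = 0.0234). The call was lost without ketogenic replicates 1, 4 and 5 (adjusted p = 0.0561, 0.0601 and 0.0519) and without a variance trend (adjusted p = 0.0777). Tubb3, the beta tubulin used as a marker of neurons, was not called, with differences of -0.15 (95% interval -0.32 to 0.02) and -0.24 (-0.55 to 0.07) in its 2 probe sets. Of these, 1371618_s_at, with the narrower interval, bears the suffix for sets that may also match transcripts of other genes. Tubb2b stood at -0.08 and Tubb4b at -0.02, neither called. The mean of the 7 beta tubulin probe sets, relative to the control mean, was -0.25 to -0.11 on ketogenic arrays and -0.06 to 0.04 on control arrays. On these quantile-normalized values no array of one diet reached into the range of the other. The median log2 fold change of the 7 was -0.19, against -0.04 as deposited and -0.0065 when centred. Array means were not worked out under those scalings.

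The calls of Tubb5 and Tubb2a depended on the scaling. Tubb5 differed by -0.15 (adjusted p = 0.0734) on the values as deposited and by -0.12 (adjusted p = 0.161) centred on the 75th percentile, and Tubb2a by -0.04 and -0.01. Of the alpha tubulins, Tuba4a lay at -0.03 (95% interval -0.16 to 0.11) and Tuba8 at 0.07 (-0.14 to 0.29), and neither was called. The alpha tubulin genes most used in brain share a probe set with 3 symbols, which was not a member.

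Stmn2, a stathmin of growing axons also known as SCG10, fell. On ketogenic arrays probe set 1370042_at lay at 9.55, 9.59, 9.60, 9.55 and 9.69, against 9.70, 9.83 and 9.92 as lowest, median and highest control. The groups did not overlap, although the highest ketogenic and the lowest control array nearly met. The difference was -0.22 (SE 0.05, adjusted p = 0.0145), and -0.10 (adjusted p = 0.192) on the values as deposited. Its other probe set, 1370041_at, stood at -0.15 (adjusted p = 0.0817). Stmn1, the widely made stathmin, averaged 9.82 ± 0.28 on the ketogenic and 10.09 ± 0.12 on the control diet (adjusted p = 0.0974), and ketogenic replicate 3, at 10.27, lay above every control. It was called lower without that array and with array weights. Stmn3 and Stmn4, both neuronal, stood at -0.08 and -0.29, not called. The mean of the 5 stathmin probe sets was -0.32 to -0.09 on ketogenic arrays and -0.07 to 0.11 on control arrays. These ranges, on quantile-normalized values, did not overlap. The median log2 fold change of the 5 was -0.22, against -0.10 as deposited and -0.06 when centred.

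**Figure D3:**
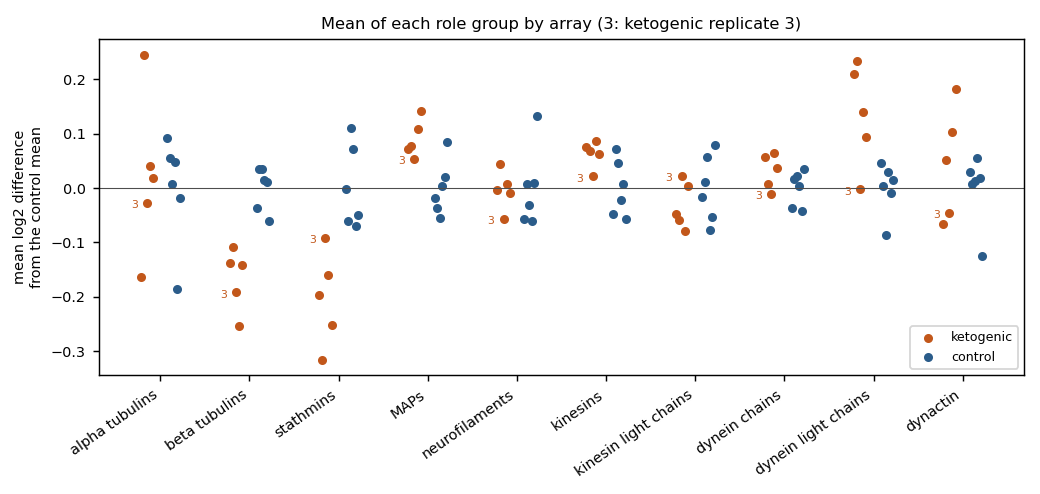
Mean log2 difference from the control mean over the tested probe sets of each role group, 1 point per array, 5 ketogenic and 6 control. Beta tubulins and stathmins are the groups in which the arrays of the diets do not overlap, on quantile-normalized values. Ketogenic replicate 3, marked 3, is the highest ketogenic array for stathmins and the lowest for dynein light chains.

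Microtubule-associated proteins held 4 of the 8 increases. Of 15 tested probe sets for 7 genes, 4 were called, or 26.7%, where 16.5% of all tested probe sets were called. These 4 were all higher and belonged to 3 genes. Under each of the other scalings 7 were called higher, where 9.04% of all tested probe sets were as deposited and 11.3% when centred. Map4, the associated protein of most non-neuronal cells, rose in both of its probe sets. By 1373268_at it lay at 8.30, 8.59, 8.55, 8.63 and 8.73 on ketogenic arrays, against 7.99, 8.15 and 8.29 as lowest, median and highest control. Ketogenic replicate 1, the lowest of its group, stood just above the highest control, and the difference was 0.40 (SE 0.08, adjusted p = 0.00767).

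Its second probe set, 1371607_at, lay at 8.88, 9.13, 8.91, 9.06 and 9.03 on ketogenic arrays, against 8.33, 8.66 and 8.997 as lowest, median and highest control. Controls spread widely and overlapped the ketogenic arrays, and the difference was 0.33 (SE 0.11, adjusted p = 0.0476). With 1 array omitted at a time, this call held in 3 of 11 fits. It was lost without control replicates 2, 3, 4 and 5 and without ketogenic replicates 1, 2, 4 and 5 (0.25 to 0.35, adjusted p = 0.0610 to adjusted p = 0.114). It was also lost when dim probe sets were tested too (adjusted p = 0.0934), without a variance trend (adjusted p = 0.0770), and with the Gapdh and actin ratios as covariates, where the difference was 0.01.

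Mapt, which encodes the axonal protein tau, gave unlike results in its 3 probe sets under quantile normalization. By 1387071_a_at it lay at 10.26, 10.28, 10.41, 10.29 and 10.19 on ketogenic arrays, against 9.81, 9.87 and 10.22 as lowest, median and highest control. Only the highest control overlapped, and here ketogenic replicate 3 was the highest of all arrays. The difference was 0.36 (SE 0.07, adjusted p = 0.00716), or 1.28-fold. The other probe sets were not called, 1368137_at at 0.16 (95% interval -0.01 to 0.33) and 1368138_at at -0.09 (-0.21 to 0.03). Under the other scalings 1368137_at was called higher, at 0.29 as deposited (adjusted p = 0.0268) and 0.32 when centred (adjusted p = 0.0176), and 1368138_at was positive, at 0.024 and 0.058, and not called. The called one is a set that the array's naming marks as shared by several transcripts of a gene.

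Mapre1, which encodes the plus-end tracking protein EB1, also split. Probe set 1370792_at lay at 6.98, 7.21, 6.87, 7.22 and 7.07 on ketogenic arrays, against 6.56, 6.65 and 6.69 as lowest, median and highest control. The ketogenic arrays were all higher, with a difference of 0.43 (SE 0.09, adjusted p = 0.00661), the largest among the members called higher. The other Mapre1 probe sets had the opposite sign. Probe set 1373397_at stood at -0.20 (adjusted p = 0.0588) and was called lower without ketogenic replicate 3 (-0.24, adjusted p = 0.0174), and 1375525_at stood at -0.26 (adjusted p = 0.0762) and was called lower without control replicate 3 (-0.32, adjusted p = 0.0311). No single direction can be given for Mapre1 from these probe sets.

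Map2, the associated protein of dendrites, was not called in either probe set, at 0.24 (95% interval -0.05 to 0.53) and 0.08 (-0.05 to 0.22), and the second was called higher without quantile normalization (0.21, adjusted p = 0.0266). Map1b, prominent in growing axons, stood at -0.06 (-0.18 to 0.06) in probe set 1373363_at, where ketogenic replicate 1 lay apart at 11.04. Map1a, of mature neurons, stood at 0.07 (-0.04 to 0.18), and was called higher under both other scalings.

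The neurofilament subunits were not called on this diet. Nefl, the light subunit, lay at 10.13, 10.03, 10.17, 10.32 and 10.26 on ketogenic arrays by probe set 1370059_at, against 10.10, 10.31 and 10.40 as lowest, median and highest control. The groups overlapped, and the difference was -0.10 (95% interval -0.24 to 0.03), while its other probe set stood at -0.03 (-0.18 to 0.11). Nefm, the medium subunit, averaged 9.65 ± 0.06 on the ketogenic and 9.74 ± 0.09 on the control diet, a difference of -0.09 (-0.21 to 0.02). Nefh, the heavy subunit, differed by 0.15 (-0.08 to 0.37), and Ina, the internexin that assembles with them, by 0.04 (-0.16 to 0.24) and 0.02 (-0.21 to 0.25). Over the 6 probe sets the intervals reached no lower than -0.24 and no higher than 0.37. All 6 were positive under both other scalings, and 4 were negative with the Gapdh and actin ratios as covariates, with 0 called under any of these.

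Kinesins had 3 called probe sets of 21 tested, or 14.3%, where 16.5% of all tested probe sets were called. All 3 were higher, and the 21 probe sets covered 15 genes. Kif5a, a neuronal heavy chain of conventional kinesin, lay at 8.99, 9.10, 8.92, 9.11 and 9.15 on ketogenic arrays by 1373187_at, against 8.72, 8.80 and 8.89 as lowest, median and highest control. Ketogenic replicate 3 came closest to the controls without reaching them. The difference was 0.25 (SE 0.06, adjusted p = 0.0181), 0.23 (adjusted p = 0.0524) without ketogenic replicate 4, and 0.12 (adjusted p = 0.921) with the Gapdh and actin ratios as covariates. Its other probe set, 1375875_at, stood at 0.20 (95% interval -0.06 to 0.46), so both were positive. Kif5b, the heavy chain made in most cells, stood at -0.13 (adjusted p = 0.25).

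Kifap3, the adaptor that joins the kinesin-2 motor to cargo, lay at 9.04, 9.17, 8.98, 9.23 and 9.40 on ketogenic arrays by 1374462_at, against 8.65, 8.77 and 8.93 as lowest, median and highest control. All ketogenic arrays were higher, with a difference of 0.37 (SE 0.08, adjusted p = 0.00875). Its other probe set, 1389556_at, stood at 0.0034 (95% interval -0.13 to 0.14), so the increase was seen in 1 of 2 probe sets. The kinesin-2 motor subunits Kif3a and Kif3b stood at -0.05 and -0.21, and both Kif3c probe sets at -0.01 and 0.12. Kif3b was just outside the threshold (adjusted p = 0.0720) and was called lower without control replicate 1 (-0.25) and without ketogenic replicate 3 (-0.24).

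Kif13a, a kinesin-3 motor of vesicles, lay at 6.65, 6.63, 6.66, 6.88 and 6.73 on ketogenic arrays by 1390480_at, against 6.06, 6.31 and 6.43 as lowest, median and highest control. All ketogenic arrays were higher, and control replicate 6, at 6.06, lay apart from the other controls. The difference was 0.41 (SE 0.09, adjusted p = 0.0131), and 0.27 (adjusted p = 0.0570) on the values as deposited. Its other probe set stood at 0.02 (95% interval -0.31 to 0.35). Kifbp, which binds kinesins of the Kif1 family, stood at 0.22 (adjusted p = 0.0832). It was called higher under both other scalings, with array weights, and without control replicate 6 or ketogenic replicate 3, and Kif1c was called higher without ketogenic replicate 3. Kinesins of cell division were mostly dim: Kif15, Kif18b, Kif20a and Kif2c were not tested. Kif22 and Kifc1 were tested, stood at 0.15 and -0.04, and were not called.

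Klc2, a light chain that links conventional kinesin to cargo, was the called kinesin subunit that fell. It lay at 9.39, 9.28, 9.46, 9.13 and 9.38 on ketogenic arrays, against 9.39, 9.66 and 9.82 as lowest, median and highest control. The groups overlapped through the lowest control, and the difference was -0.31 (SE 0.08, adjusted p = 0.0217). It was -0.19 (adjusted p = 0.0961) on the values as deposited. The call was lost without ketogenic replicate 2 (-0.30, adjusted p = 0.0559) and without ketogenic replicate 4 (-0.26, adjusted p = 0.0652). Klc1 had 3 tested probe sets, at -0.05, -0.04 and 0.22, none called, and Klc4 stood at 0.02.

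On the side of retrograde transport, Dynlt3 was the called member. This dynein light chain lay at 9.59, 9.68, 9.35, 9.59 and 9.52 on ketogenic arrays, against 9.22, 9.32 and 9.39 as lowest, median and highest control. Ketogenic replicate 3 lay among the controls and the other 4 above them, and the difference was 0.23 (SE 0.06, adjusted p = 0.0255). The call was lost without control replicate 2 and without ketogenic replicates 1, 2 and 4 (0.19 to 0.22, adjusted p = 0.0546 to adjusted p = 0.0700). It was also lost without a variance trend (adjusted p = 0.0536) and with the ratios as covariates, where the difference was 0.02. Dynlrb1, another light chain, was just outside the threshold at 0.22 (adjusted p = 0.0618), with ketogenic replicate 3 at 9.65 far below the other 4. Without that array it was 0.27 (adjusted p = 0.0206), and it was also called without control replicate 1 (0.27, adjusted p = 0.0264). With all arrays kept, Dynlrb1 was called higher as deposited (0.34, adjusted p = 0.0132) and when centred (0.38, adjusted p = 0.00999). The same held with array weights and with a block for replicate number. It was called in 6 of 22 alternative fits, and with the ratios as covariates the difference was 0.03, not called. Dynll2 stood at 0.06 in both probe sets and Dynlt1 at 0.11, not called. Dynll2 by 1372612_at was called higher as deposited (0.19, adjusted p = 0.0496) and when centred (0.22, adjusted p = 0.0322).

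The catalytic heavy chain Dync1h1 stood at -0.10 (95% interval -0.26 to 0.05), and the intermediate and light intermediate chains lay between 0.02 and 0.13. Dync1li1, a light intermediate chain, lay at 8.86 to 9.0 on ketogenic and 8.71 to 8.85 on control arrays. These ranges did not overlap, but the difference of 0.13 was not called (adjusted p = 0.119). Dync1li1 was called higher under both other scalings, and Dync1li2, the other light intermediate chain, when centred (0.20, adjusted p = 0.0335). Dctn1, the large dynactin subunit that binds dynein and microtubules, differed by 0.01 (-0.12 to 0.13), and the 6 dynactin probe sets ranged from -0.13 to 0.33 with none called.

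Dync2i1, an intermediate chain of the dynein of cilia, was not tested because its mean lay below the testing level, and is described here after its values were seen. It lay at 6.63, 5.92, 5.75, 6.37 and 6.0 on ketogenic arrays, against 3.37, 4.13 and 5.08 as lowest, median and highest control. The diets did not overlap. Its control level is below that at which probe sets were tested, so no fold or test is given. It was the 1 untested member of 14 without overlap. How many of all untested probe sets lacked overlap was not counted, so this number has no background to be read against. The other chains of that dynein, Dync2h1 and Dync2li1, stood at 0.10 and -0.04, not called.

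Where a gene had several tested probe sets, they did not always have the same sign. Among 19 such genes, all probe sets had 1 sign in 12 and both signs in 7. Of the 8 with a called probe set, Map4 had both called, and Tubb5, Stmn2, Kif5a, Kifap3 and Kif13a had 1 called and 1 of the same sign. In Kifap3 and Kif13a the uncalled value was 0.02 or less. Mapt and Mapre1, with 3 tested probe sets each, had both signs. Where on its transcript each probe set lies was not analysed here.

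**Figure D4:**
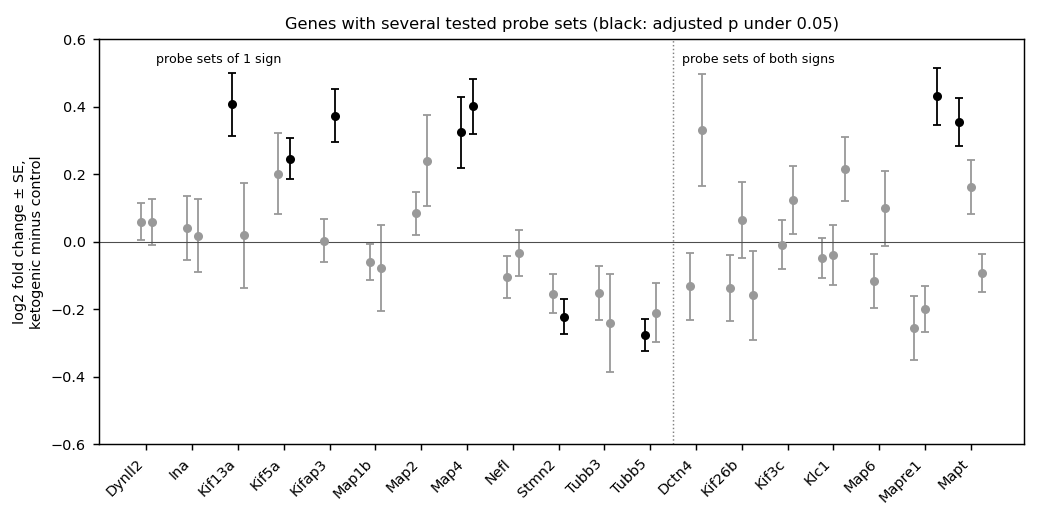
Log2 fold change ± SE, ketogenic minus control, of each tested probe set in the 19 member genes that have several, ordered within a gene by mean signal. Black points are called. Of the 19 genes, 12 to the left of the dotted line have probe sets of 1 sign, and Mapre1 shows a called increase beside 2 decreases that were not called.

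A set of 69 other genes of the pathway gave calls in both directions. Of 54 measured, 4 were called higher and 5 lower, where 16.9% of all 8397 genes were called. Pafah1b1, which encodes the dynein regulator LIS1, rose by 0.67 (SE 0.12, adjusted p = 0.00492), at 8.78 ± 0.29 on the ketogenic and 8.11 ± 0.17 on the control diet (SD, n = 5 and 6). Tubg1, the gamma tubulin from which microtubules start, rose by 0.29, Tbcd, a cofactor of tubulin folding, by 0.33, and Uchl1, an abundant neuronal ubiquitin hydrolase, by 0.34. Hap1, a partner of huntingtin and of motors, fell by 0.49, and Mapk8ip1, a scaffold between kinesin and cargo, by 0.28. Cdk5r1, the p35 activator of the tau kinase Cdk5, fell by 0.55, Basp1, a protein of growing axons, by 0.63, and Agtpbp1, which trims glutamates from tubulin tails, by 0.37. Apart from Pafah1b1, the adjusted p of these called genes (limma) ran from 0.0095 for Cdk5r1 to 0.0434 for Tbcd. Among plus-end and lattice-binding genes 0 of 13 were called. Motor partners, at 1 higher and 2 lower of 14, went in both directions.

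Some markers of cell types changed with the diet, where 16.9% of all 8397 genes were called. Neuronal markers had 1 gene called higher, Camk2a, and 0 lower of 9, with a mean level relative to control of 0.05 to 0.19 on ketogenic and -0.06 to 0.12 on control arrays. Camk2a rose by 1.34, whereas the median difference of the 9 was 0.0038, with 5 positive and 4 negative. Stmn2, also a member, counted here by its uncalled probe set 1370041_at. Astrocyte markers had 2 called lower of 8, Gfap and Aqp4, with levels of -0.22 to 0.02 on ketogenic and -0.07 to 0.06 on control arrays. Microglial markers had 2 lower of 5, Aif1 and Csf1r, at -0.31 to -0.01 on ketogenic and -0.18 to 0.15 on control arrays. Oligodendrocyte markers had 1 lower of 6, Mag, at -0.35 to 0.08 on ketogenic and -0.19 to 0.22 on control arrays. All of these groups overlapped between the diets. Vascular markers had 1 lower of 4, Slco1a4, at -0.45 to -0.04 on ketogenic and -0.12 to 0.06 on control arrays. Choroid plexus markers had 3 lower of 7, Aqp1, Cldn2 and Folr1, at -0.68 to -0.09 on ketogenic and -0.27 to 0.49 on control arrays. The sign was positive in 3 of 8 astrocyte, 1 of 5 microglial and 1 of 6 oligodendrocyte markers. It was positive in 1 of 4 vascular and 0 of 7 choroid plexus markers. Of 15 markers of cells with motile cilia 1, Foxj1, was measured and not called (-0.28). Of the 3 measured markers of dividing cells Ccnb1 was called lower (-0.43), while Birc5 (-0.24) and Plk1 (-0.65) were not called. Mki67, Top2a and Cdk1 were below the testing level. The part of cell makeup in the tubulin, stathmin and Map4 differences was not tested.

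The increases kept their calls under other scalings more often than the decreases. As deposited, 14 members were called higher and 0 lower, and centred on the 75th percentile 16 and 0, while all 12 called members kept their sign. The share of all calls that were higher was 52.3% under quantile normalization, 38.3% as deposited and 49.4% when centred. Over the whole array, 9.04% of tested probe sets were higher calls and 14.6% lower calls as deposited, against 11.3% and 11.6% when centred. Of the 8 increases 7 kept their call as deposited and 8 after centring, and of the 4 decreases 0 did in either. As deposited all 4 decreases moved upward, such as Tubb5 (1387892_at) from -0.28 to -0.15. Bright increases such as Mapt (1387071_a_at) moved upward too, from 0.36 to 0.47. The dimmer Mapre1 (1370792_at) and Kif13a (1390480_at) moved down, from 0.43 to 0.34 and from 0.41 to 0.27. In fits with 1 array left out, 7 of the 12 calls held in all 11 fits: Mapre1, Mapt, Map4 by 1373268_at, Kifap3, Kif13a, Tubb5 and Stmn2. Without ketogenic replicate 3 the counts were 11 higher and 8 lower, and without ketogenic replicate 4 they were 5 and 2.

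**Figure D5:**
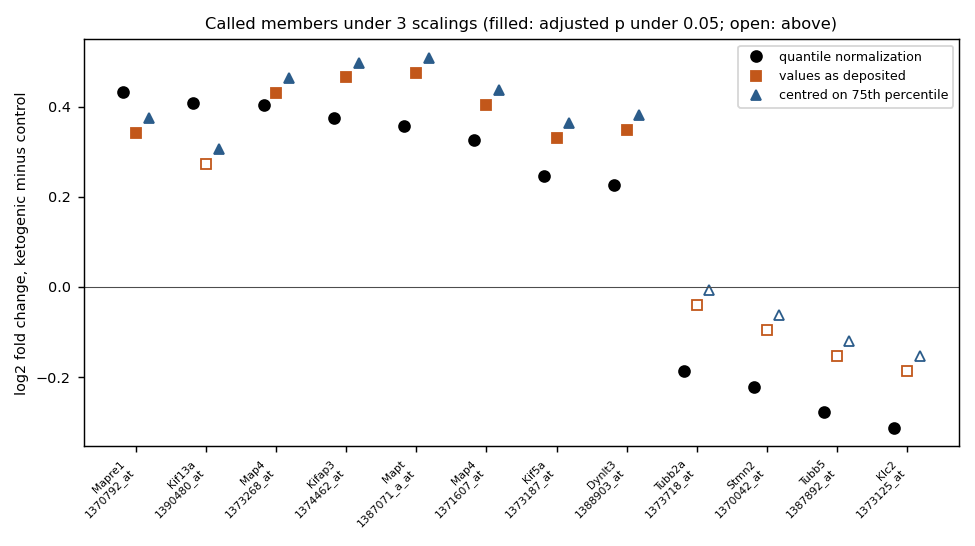
Log2 fold change, ketogenic minus control, of the 12 called members under quantile normalization, as deposited, and after centring each array on its 75th percentile. Filled symbols have an adjusted p under 0.05. The 4 decreases, on the right, stay below 0 but lose their call under both other scalings, and 7 of the 8 increases keep theirs on the values as deposited.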

How the data were processed

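Expression in rat hippocampus was measured by array from total RNA of 11 samples, 5 from the ketogenic and 6 from the control diet, grouped by their titles. The authors deposited a linear intensity for each probe set and array, whose mean after trimming 2% at each end was 150.023 to 150.028 on each array. No scanner or summary software is given in the sources used here, and the number of arrays limits the precision.

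Medians of the log2 values spanned 0.24, so arrays were quantile normalized, signals under their overall 5th percentile were raised to it (5.02), and log2 was taken. The 57 control probe sets and the lower 25% by mean were left out, which left 11899. limma 3.58.1 in R 4.3.3 was fitted to all of them (lmFit, eBayes with a variance trend, two-sided, Benjamini-Hochberg, threshold 0.05), after a test on simulated data. Symbols came from the platform annotation, in which 12789 of 13101 probe sets had 1 symbol. All 93 member identifiers were found in a RefSeq gene table of GRCr8, with 0 symbols changed. Other genes were represented by their brightest tested probe set.

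The members and lists were chosen with earlier results of these data known. Named were the called members, other tested probe sets of their genes, the brightest member of each role group, Nefl, Nefm, Nefh, Ina, Mapt, Map2 and Tubb3, the 3 members just outside the threshold, and called genes of the pathway lists. Other members were added, after their values were seen, to describe their role group. Alternatives were other scalings, filters, floors, variance models and a threshold of 0.1, array weights, a block for replicate number, the 3 prime to 5 prime ratios as covariates, and leaving out each array.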

Additional observations from a re-analysis of the deposited data

Results flagged for a closer look

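Among the 80 groups of arrays examined (2 for each of 40 named probe sets), 8 held an array far from the others of its group, where chance gives about 1 in 20 groups, or 4 here. On the ketogenic diet, replicate 1 lay at 11.04 for Map1b (1373363_at), where the nearest ketogenic array lay at 10.92, and at 10.60 for Klc1 (1370886_a_at), where the nearest lay at 10.42. Ketogenic replicate 3 lay at 9.65 for Dynlrb1, where the nearest lay at 9.85. On the control diet, replicate 6 lay at 6.06 for Kif13a (1390480_at), at 9.69 for Kifap3 (1389556_at) and at 9.97 for Ina (1387226_at), where the nearest control arrays lay at 6.30, 9.96 and 9.63. Control replicate 5 lay at 9.47 for Tuba4a (nearest 9.62), and control replicate 1 at 10.68 for Klc1 (nearest 10.47). Kif13a is the called probe set among these, and it kept its call without control replicate 6.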

How the results depend on the processing

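The 12 called members had 264 values under alternatives, of which 221 kept direction and call, 43 lost the call and 0 changed sign. The 28 other named probe sets had 614, of which 48 changed sign, with 0 of those called, and 23 became called (the cause was not tested). On the values as deposited the member median was 0.032, with 14 members called higher and 0 lower; centred on the 75th percentile they were 0.065, 16 and 0. With the Gapdh and actin ratios as covariates 6 probe sets, 0 members in either direction and 0 other pathway genes were called. Array weights gave 3136 probe sets, 8 members lower and 15 pathway genes, and a threshold of 0.1 gave 3070, 9 and 15. Whether a ketogenic and a control array with the same replicate number form a pair is not known. Deviations of same-numbered arrays correlated at 0.009 to 0.077, and 2 of 5 numbers matched themselves best. The range to be met without pairing was not worked out, so these values cannot decide it. With the replicate block 7 members were lower, 11 higher and 1816 probe sets were called. It added Stmn1, Stmn4 and Tubb3 (1371618_s_at, -0.20, adjusted p = 0.0479) to the lower ones and Map2 (1368411_a_at, 0.34, adjusted p = 0.0267), Dynlrb1 and Kifbp to the higher ones. Control replicate 6 has no ketogenic array of the same number, so under the block it had no part in the difference. The member median was -0.0025 both under the block and without that array.

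Leaving out 1 array at a time gave 5 to 11 members higher, 2 to 8 lower, 4 to 13 pathway genes, 800 to 3162 probe sets, 8 to 13 genes with probe sets of 1 sign and member medians of -0.021 to 0.018. The lowest count of probe sets came without ketogenic replicate 4 and the highest without ketogenic replicate 3. Without ketogenic replicate 2 there were 846, and without control replicates 2, 3 and 5 and ketogenic replicates 1 and 5 there were 1173, 1251, 1262, 1207 and 1240. The Gapdh ratio differed by 0.18 to 0.23 and the actin ratio by 0.16 to 0.22.

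Signs changed on the values as deposited for Map1b (1373363_at, 0.072), Mapt (1368138_at, 0.024), Tuba4a (0.10), Klc1 (1370886_a_at, 0.074), Kif13a (1390319_at, -0.18), Nefl (0.092 and 0.013), Nefm (0.031) and Stmn3 (0.030). Centred on the 75th percentile, the same probe sets stood at 0.10, 0.058, 0.13, 0.11, -0.15, 0.12 and 0.046, 0.064 and 0.063, with Tubb3 (1371618_s_at) at 0.0016 and Stmn2 (1370041_at) at 0.0025. With the ratios as covariates signs changed for Tubb5 (1370290_at, 0.071), Dctn1 (-0.062), Dync1li2 (-0.061), Dynll2 (1372612_at, -0.040), Kif13a (1390319_at, -0.15), Ina (-0.20 and -0.093), Nefh (-0.20) and Nefl (0.059 and 0.069). Kif13a (1390319_at) changed with array weights (-0.025) and without control replicate 1 (-0.031) or ketogenic replicates 1 (-0.070) and 2 (-0.0080). Kifap3 (1389556_at) changed with array weights (-0.018), with the replicate block (-0.050), and without control replicate 6 (-0.050) or ketogenic replicate 1 (-0.015). Ina (1371148_s_at) changed without control replicates 1 (-0.048) and 4 (-0.015) and ketogenic replicates 1 (-0.041) and 2 (-0.0045), and 1387226_at without ketogenic replicate 2 (-0.026). Dctn1 changed without control replicates 4 (-0.0040) and 5 (-0.0099) and ketogenic replicate 2 (-0.028), and without ketogenic replicate 1 Tuba4a stood at 0.016 and Nefl (1370058_at) at 0.037. Over all fits that left out 1 array, Tuba4a ranged from -0.060 to 0.016, Dctn1 from -0.028 to 0.041, Kif13a (1390319_at) from -0.070 to 0.079 and Nefl (1370058_at) from -0.071 to 0.037.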
